A study of Mus musculus with 6 samples.

Results

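The genes described here are 10 RNA-binding regulators of splicing or RNA handling that are tied to myotonic dystrophy type 1 (DM1) or to muscle splicing: the muscleblind-like genes *Mbnl1*, *Mbnl2*, and *Mbnl3*, the CELF genes *Celf1* and *Celf2*, the RBFOX genes *Rbfox1* and *Rbfox2*, and *Ptbp1*, *Qk*, and *Stau1*. They were taken by name, 10 of the 55421 genes in the count table, and no measured value enters the rule, although results of these data were known when the names were put together. Total RNA was sequenced from C2C12 cells, a mouse myoblast line that fuses into myotubes in low serum, at differentiation day 4. The normal group (CUG5) carried a plasmid with 5 CTG repeats behind the *GFP* reading frame, and the DM1 group (CUG200) carried the same kind of plasmid with 200 repeats. Both groups were stably selected with G418 and, by design, differed in the length of the repeat, with 3 libraries in each. The repeat sat in a transgene and not in the endogenous *Dmpk* gene. The methods do not say whether the libraries of a group came from separate transfections, so p-values measure only the spread between these libraries.

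MBNL proteins bind YGCY motifs in RNA and drive many of the splicing changes of muscle maturation. In DM1 the transcribed CUG repeat folds into hairpins that hold MBNL proteins in nuclear foci, which lowers their free protein without a need for less MBNL mRNA, while CELF1 is known to be stabilized by phosphorylation and acts against MBNL on several shared exons. RBFOX proteins, PTBP1, and QKI are further regulators of muscle exons, and Staufen1 binds double-stranded RNA and has been linked to the expanded CUG RNA. Gene-level counts, as used here, show the amount of mRNA of each regulator. They show no exon inclusion, protein amount, phosphorylation, or foci.

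The libraries held between 61707889 and 80957325 counts, where 1 count stands for 75 aligned bases. A level that could not be told from 0, at 3 counts, was worth between 0.0371 and 0.0486 CPM (counts scaled to library size), and every regulator was above this in every library. Mitochondrial RNA was 9.04% of normal replicate 1 and 8.90% of DM1 replicate 3, and 12.3% to 13.5% of the other 4 libraries. DM1 replicate 3 was also the lowest of the 6 libraries for *Mbnl1* in CPM, though not in TPM. It was the highest DM1 library for *Rbfox2*, *Stau1*, and the summed CELF level in TPM. Values without it are given beside each call of a regulator that it changes. The part of its lower mitochondrial share in these values was not tested. The 21 myotube markers, a check of the labelled cell type, were all detected, and their summed level was between 17551.8 and 20597 TPM (the level that StringTie scales for transcript length and library) in the normal group and between 11562.5 and 13674.5 TPM in the DM1 group. In the quasi-likelihood test of edgeR, with p-values adjusted by the Benjamini-Hochberg method, 17 of these 21 fell in the DM1 group and 0 rose, with a median log2 fold change of -0.68. Without DM1 replicate 3, 17 fell and 1 rose. Over all tested genes, with every library in, 8.73% fell and 7.13% rose. This lower level of myotube RNA stands beside each result given here, and its part in the levels of the regulators was not tested. In bulk RNA, fewer myotubes and less RNA per myotube cannot be told apart. Of 6 adipocyte and 6 osteoblast markers only 2 in each list passed the filter on low counts, and *Fabp4*, *Adipoq*, *Cidec*, and *Dlx5* were at 0.

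All 10 regulators passed the filter and were tested among 19005 genes. *Qk*, *Celf1*, *Rbfox1*, and *Ptbp1* fell in the DM1 group at an adjusted p under 0.05, and none of the 10 rose. Over all tested genes 1660 (8.73%) fell and 1356 (7.13%) rose at this threshold. With 1 library left out at a time, between 485 and 2111 of all tested genes fell and between 543 and 1678 rose. The count of regulators that fell was then between 2 and 6, always with *Qk* and *Celf1* among them. No regulator changed by more than 2-fold. With an absolute log2 fold change over 1 as a second condition, 155 genes (0.816%) fell and 259 (1.36%) rose over all tested genes. The 3 libraries of one group lay wholly below those of the other for 5 regulators, all lower in the DM1 group. Over all tested genes, 19.3% had such a lower DM1 group and 17.9% such a higher one. The median log2 fold change of the 10 regulators was -0.29, against 0.02 over all tested genes.

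**Figure D1:**
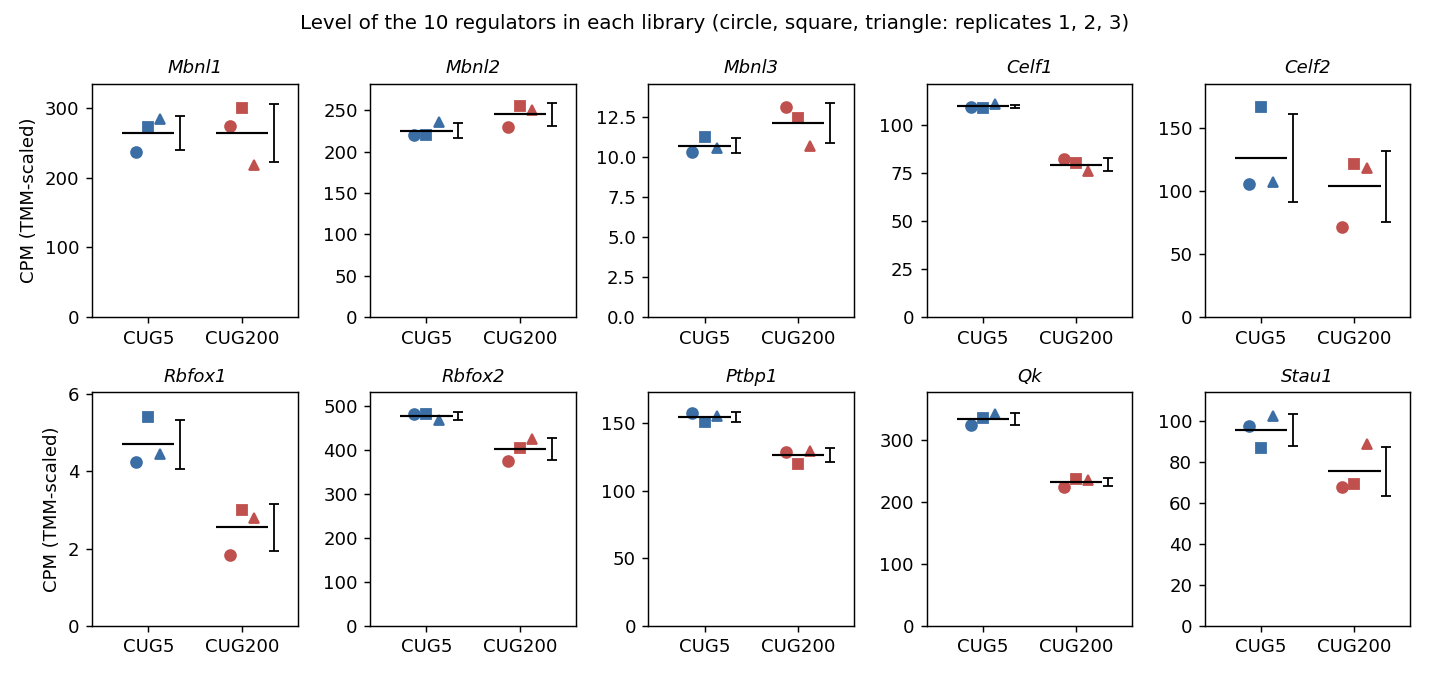
Level of each regulator in CPM, scaled by trimmed mean of M values (TMM), with a linear axis from 0 in each panel. Points are libraries (circle, square, and triangle for replicates 1, 2, and 3), horizontal lines are group means, and bars show the SD over 3 libraries. The groups are apart for *Qk*, *Celf1*, *Rbfox1*, *Rbfox2*, and *Ptbp1*, and overlap for the 3 MBNL genes, *Celf2*, and *Stau1*.

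**Figure D2:**
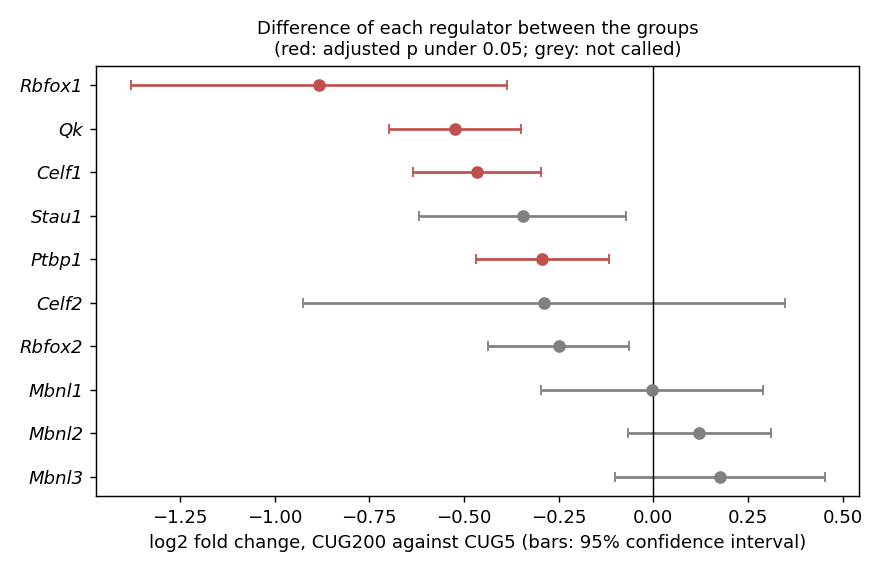
Log2 fold change of each regulator, CUG200 against CUG5, with its 95% confidence interval from edgeR. The 4 genes called at an adjusted p under 0.05 (red) lie between -0.88 and -0.29, and the intervals of the 3 MBNL genes and *Celf2* include 0.

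The 3 MBNL mRNAs did not pass the test. *Mbnl1* (ENSMUSG00000027763, chr3:60472830-60629750 of GRCm38, plus strand, 25 annotated transcripts) encodes the most abundant muscleblind protein of skeletal muscle. Its level was 237, 273, and 284 CPM in the normal libraries 1 to 3, and 274, 299.9, and 218 CPM in the DM1 libraries. The DM1 group held both the highest and the lowest of the 6 values. The group means were 265 ± 24.6 and 264 ± 42.0 CPM (SD, n = 3 each), and edgeR gave a log2 fold change of -0.00 with a standard error (SE) of 0.129 and an adjusted p of 0.991. The 95% confidence interval of its DM1 to normal ratio ran from 0.814 to 1.22.

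*Mbnl2* (ENSMUSG00000022139, chr14:120275669-120431697, plus strand), which takes part in the splicing of brain and regenerating muscle, was at 220.5, 220.2, and 236 CPM in the normal libraries and at 229, 256, and 251 CPM in the DM1 libraries. The lowest DM1 library lay below the highest normal one. The log2 fold change was 0.12 (SE 0.0828, edgeR adjusted p = 0.369), and the interval of the ratio ran from 0.955 to 1.24. On the length-scaled TPM the sign turned, with a log2 fold change of -0.05 (limma-trend adjusted p = 0.858 at a pseudocount of 0.1). *Mbnl3* (ENSMUSG00000036109, chrX:51117269-51206532, minus strand), the family member known from proliferating myoblasts and placenta, was at 10.3, 11.3, and 10.5 CPM in the normal group and at 13.2, 12.5, and 10.7 CPM in the DM1 group. Of the DM1 libraries, replicate 3 was below normal replicate 2, and the others were above all normal libraries. Its log2 fold change was 0.18 (SE 0.122, edgeR adjusted p = 0.376), with an interval of the ratio from 0.933 to 1.37. On TPM it was 0.05 (limma-trend adjusted p = 0.894 at a pseudocount of 0.1), and with an offset for transcript length 0.27 (edgeR adjusted p = 0.193).

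Per transcript length, *Mbnl1* made up 53.9% ± 1.22 of the summed MBNL level (TPM) in the normal group and 52.3% ± 3.06 in the DM1 group (two-sided exact permutation p = 0.7). *Mbnl2* made up 44.2% ± 1.31 and 45.6% ± 3.19 (exact p = 0.7), and *Mbnl3* 1.95% ± 0.145 and 2.15% ± 0.278 (exact p = 0.4). With 3 libraries against 3 the smallest exact p is 0.1, and 6 shares and ratios were tested. None of the MBNL shares differed beyond the spread between libraries, and the differences for *Mbnl1* and *Mbnl2* changed sign without DM1 replicate 3 (to 0.197 and -0.476 percentage points). The difference for *Mbnl3* was 0.203 percentage points, and 0.0425 without DM1 replicate 1. The summed MBNL level was 235 ± 4.33 TPM in the normal group and 221 ± 20.1 TPM in the DM1 group (exact p = 0.4). In CPM, which is not scaled for length, the sum had the opposite sign, with 500.9 ± 31.4 in the normal group and 521.5 ± 44.5 in the DM1 group (exact p = 0.6).

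*Celf1* mRNA fell. The gene (ENSMUSG00000005506, chr2:90940382-91019497, plus strand, 14 annotated transcripts) encodes the CUG-binding protein that regulates splicing in the nucleus and mRNA decay and translation in the cytoplasm. Its level was 109.07, 108.77, and 110.6 CPM in the normal libraries and 82.2, 79.8, and 75.8 CPM in the DM1 libraries. Every DM1 library was below every normal library, and the normal libraries lay within an SD of 0.979 CPM. The means were 109 ± 0.979 and 79.2 ± 3.23 CPM, and the level fell by 27.6%, or by 0.47 on the log2 scale (SE 0.0742, edgeR adjusted p = 0.00612). It was called in each of the 16 alternative settings, in which its log2 fold change lay between -0.55 and -0.34. The direction is that of the mRNA alone, since stabilization of the CELF1 protein would not show in these counts.

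*Celf2* (ENSMUSG00000002107, chr2:6539694-7509563, minus strand, 28 annotated transcripts), a close paralog that also opposes MBNL on some exons, varied more between libraries than between groups. Its level was 105, 167, and 108 CPM in the normal group and 71.2, 122, and 118 CPM in the DM1 group. The groups overlapped, with replicate 2 the highest and replicate 1 the lowest library in each. The log2 fold change was -0.29 with an SE of 0.265, against 0.0742 for *Celf1*, and an edgeR adjusted p of 0.530. It was -0.04 without normal replicate 2 and -0.06 without DM1 replicate 1. *Celf1* took 40.3% ± 4.25 of the summed CELF1 and CELF2 level (TPM) in the normal group and 38.2% ± 5.88 in the DM1 group (exact p = 0.8). The summed CELF level was 73.0, 80.2, and 64.6 TPM in the normal libraries and 41.2, 53.5, and 64.5 TPM in the DM1 libraries. The highest DM1 library lay just below the lowest normal one, the change in the mean was -26.9%, and the exact p was 0.1, the smallest this design allows. In CPM the change in the mean was -22.5% (exact p = 0.1).

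The log2 ratio of summed MBNL to summed CELF level (TPM) was 1.71, 1.52, and 1.87 in the normal group and 2.27, 2.16, and 1.81 in the DM1 group. DM1 replicate 3 lay within the range of the normal libraries and the others lay above it. The difference of 0.38 in favour of MBNL had an exact p of 0.2, or 0.6 after Benjamini-Hochberg adjustment over the 6 shares and ratios. From CPM in place of TPM the difference was 0.42 with an exact p of 0.1, the smallest that 3 libraries against 3 can give.

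*Rbfox1* had the largest fold change of the 10. The gene (ENSMUSG00000008658, chr16:5885355-7411526, plus strand) encodes a regulator of muscle, heart, and neuronal exons that binds GCAUG. Its level was 4.23, 5.42, and 4.45 CPM in the normal libraries and 1.84, 3.00, and 2.80 CPM in the DM1 libraries, from between 137 and 356 counts per library. The groups did not overlap. The means were 4.70 ± 0.633 and 2.55 ± 0.620 CPM, and the level fell by 45.8%, or by 0.88 on the log2 scale (SE 0.218, edgeR adjusted p = 0.0282). With 1 library left out at a time the adjusted p lay between 0.0337 and 0.101, and the gene was called without DM1 replicate 3 and not without any of the other 5 libraries, while the log2 fold change stayed between -1.02 and -0.68. It was not called with limma-trend on TPM (adjusted p = 0.0770 and 0.0750 at pseudocounts of 0.1 and 1).

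*Rbfox2* (ENSMUSG00000033565, chr15:77078990-77307004, minus strand), the paralog that acts from the myoblast stage on, was at 483.6, 483.0, and 468 CPM in the normal group and 376, 405, and 426 CPM in the DM1 group. The groups did not overlap, and the DM1 libraries were spread more widely (SD 24.9 CPM) than the normal ones (SD 8.61 CPM). The log2 fold change of -0.25 (SE 0.0821) did not pass, with an edgeR adjusted p of 0.0730. It was past the threshold without DM1 replicate 3 (log2 fold change -0.29, edgeR adjusted p = 0.0317) and with DESeq2 (adjusted p = 0.0491).

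*Rbfox1* was a minor part of the RBFOX level. Per transcript length it held 2.65%, 3.50%, and 2.78% of the summed RBFOX TPM in the normal libraries and 1.61%, 2.48%, and 2.34% in the DM1 libraries. The ranges did not overlap, and the exact p was 0.1, the smallest possible, with 0.6 after adjustment. The difference in share was -0.83 percentage points from TPM and -0.35 from CPM in place of TPM (exact p = 0.1). The summed RBFOX level was 200.5 ± 17.4 TPM in the normal group and 154 ± 23.8 TPM in the DM1 group, a change of -23.4% (exact p = 0.1). In CPM the sum was 483 ± 8.83 in the normal group and 405 ± 25.4 in the DM1 group, a smaller change of -16.2% (exact p = 0.1). *Rbfox3*, the neuronal family member, had 0 counts in all 6 libraries.

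*Ptbp1* (ENSMUSG00000006498, chr10:79854427-79864771, plus strand) encodes the polypyrimidine tract binding protein, a repressor of muscle and neuronal exons whose level is known to drop as myoblasts differentiate. Its level was 158, 151, and 155 CPM in the normal libraries and 129.1, 120.2, and 129.7 CPM in the DM1 libraries. All DM1 libraries were below all normal ones. The means were 155 ± 3.54 and 126 ± 5.28 CPM, and the level fell by 18.4%, or by 0.29 on the log2 scale (SE 0.0770, edgeR adjusted p = 0.0347), the smallest change among the 4 called regulators. With 1 library left out at a time the adjusted p lay between 0.0220 and 0.147 and the call remained in 2 of 6 cases, without DM1 replicate 1 or DM1 replicate 3. It was also lost with library totals alone (edgeR adjusted p = 0.0521) and with limma-trend on TPM (adjusted p = 0.194 and 0.198 at pseudocounts of 0.1 and 1).

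*Ptbp1* and *Rbfox1* were the 2 regulators with an E-box of the sequence CAGCTG near a start. The sequence reads the same on both strands and is bound by MyoD and myogenin, the factors that drive myoblast differentiation. It was searched in the RefSeq promoter windows of GRCm38.p6 (250 bases before to 50 bases after each start), of which 9 of the 10 regulators had at least 1. The E-box is given here in capitals with its surrounding bases, for *Ptbp1* at chr10:79854458-79854481 and for *Rbfox1* at chr16:7069754-7069777, both on the plus strand:
Ptbp1: ccgtcccgcccaaCAGCTGtctgc
Rbfox1: ccgaccctgCAGCTGccgcgtccc
The match lay 39 bases after the annotated start in *Ptbp1* and 72 bases before it in *Rbfox1*. Of the 16 windows of these regulators 2 held the sequence, against 5355 of all 32851 windows (16.3%). The match is a description of the letters and not of binding.

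*Qk* had the smallest p-value of the 10. The gene (ENSMUSG00000062078, chr17:10202601-10319854, minus strand) encodes QKI, which binds ACUAA motifs and regulates muscle splicing, circular RNA formation, and mRNA stability. Its level was 324, 335, and 342 CPM in the normal libraries and 224, 236, and 235 CPM in the DM1 libraries. The gap between the groups was far wider than the range within either. The means were 334 ± 9.30 and 231.9 ± 6.53 CPM, and the level fell by 30.5%, or by 0.52 on the log2 scale (SE 0.0767, edgeR adjusted p = 0.00447). It was called in each of the 16 alternative settings, with a log2 fold change between -0.68 and -0.39.

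The QKI motif ACTAAC (as DNA, read on the strand of the transcript) was searched in the last 500 bases of the longest annotated 3′ untranslated region of each gene, and 2 of the 10 regulators held it, both of them MBNL genes. The motif is shown in capitals, for *Mbnl2* at chr14:120431430-120431453 on the plus strand and for *Mbnl3* at chrX:51117277-51117300 on the minus strand of GRCm38:
Mbnl2: agttagggaACTAACtccacttgc
Mbnl3: agaaggcttACTAACaaagttctc
Over 15160 genes with a region of this length, 7.45% held the motif. The letters TGCATG, of the RBFOX motif, stood in 15.7% of these regions and in 0 of the 10 regulators, and TGTTTGT, of a CELF1 motif, stood in 12.8% and in 0 of the 10. The absence of a match covers these letters and these 500 bases only.

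*Stau1* (ENSMUSG00000039536, chr2:166947549-166996299, minus strand) encodes Staufen1, a double-stranded RNA-binding protein of mRNA transport and decay. Its level was 97.8, 87.2, and 103 CPM in the normal libraries and 68.1, 69.3, and 89.1 CPM in the DM1 libraries. DM1 replicate 3 lay above normal replicate 2, so the groups overlapped, and the other DM1 libraries were below all normal ones. The log2 fold change was -0.35 (SE 0.120, edgeR adjusted p = 0.0877). Without DM1 replicate 3 it was -0.48 with an edgeR adjusted p of 0.00922. With the replicate number as a block it was -0.35 with an edgeR adjusted p of 0.0450.

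**Figure D3:**
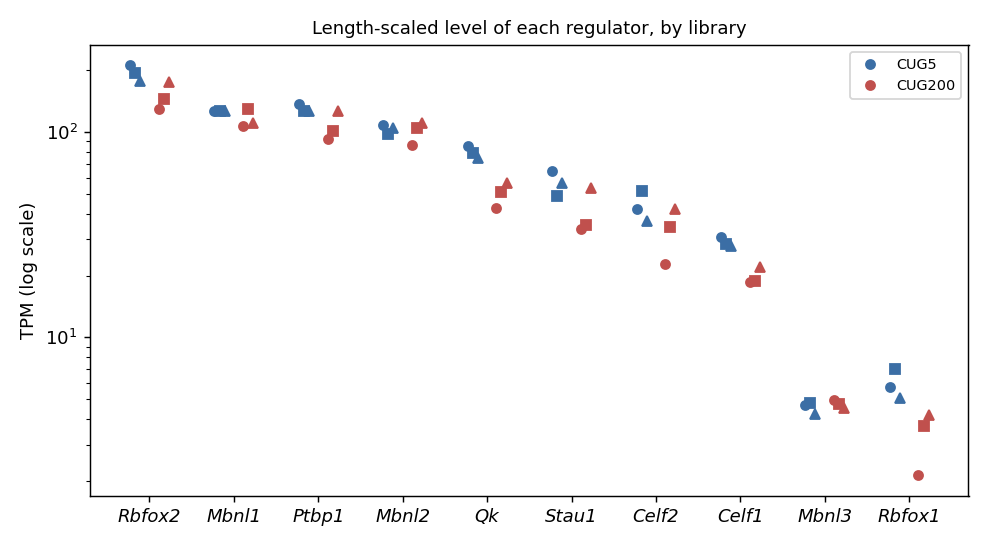
Length-scaled level (TPM, log axis) of each regulator in each library, ordered by mean level. Circles, squares, and triangles are replicates 1, 2, and 3. *Rbfox2* is the most abundant, and *Mbnl3* and *Rbfox1* lie far below the other 8.

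On the length-scaled scale, *Rbfox2* had the highest level of the 10 in both groups, with 195 ± 17.03 TPM in the normal group and 150.2 ± 22.9 TPM in the DM1 group. In the normal group *Ptbp1* (131 ± 5.60 TPM), *Mbnl1* (126 ± 0.568 TPM), and *Mbnl2* (104 ± 4.95 TPM) followed, then *Qk* (79.9 ± 5.57 TPM), *Stau1* (56.7 ± 8.20 TPM), *Celf2* (43.6 ± 7.65 TPM), and *Celf1* (29.1 ± 1.63 TPM). *Rbfox1* (5.96 ± 0.983 TPM) and *Mbnl3* (4.57 ± 0.306 TPM) were last. Only *Stau1* and *Celf2* had overlapping ranges among neighbours in this order, although the means of *Ptbp1* and *Mbnl1* differed by less than the SD of *Ptbp1*.

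In the DM1 group *Mbnl1* (116 ± 11.8 TPM) stood above *Ptbp1* (107 ± 17.5 TPM) and *Mbnl3* (4.73 ± 0.205 TPM) above *Rbfox1* (3.34 ± 1.07 TPM), and the other places were the same. *Qk* was at 50.2 ± 7.01 TPM, *Stau1* at 40.8 ± 11.02 TPM, *Celf2* at 33.2 ± 9.91 TPM, and *Celf1* at 19.8 ± 1.98 TPM. More neighbours overlapped here: *Mbnl1* with *Ptbp1*, *Ptbp1* with *Mbnl2* (101 ± 12.7 TPM), *Qk* with *Stau1*, and *Stau1* with *Celf2*.

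The counts, coverage, and TPM of a gene together give the mean length of its transcripts, weighted by their abundance. This is the only view these tables give of a switch between isoforms. *Rbfox1* had a mean transcript length of 1313, 1269, and 1411 bases in the normal libraries and 1218, 1224, and 1147 bases in the DM1 libraries. Every DM1 library was shorter, with a change in the mean of -10.1% (1331 ± 72.9 and 1196 ± 42.7 bases) and an exact p of 0.1, or 0.667 after adjustment over the 10 regulators. The other 9 regulators overlapped between the groups. *Ptbp1* had 2059, 1948, and 1966.5 bases in the normal group and 1966.2, 1785, and 1762 bases in the DM1 group (a change of -7.71%, exact p = 0.2). *Mbnl1*, whose isoforms differ by several regulated exons, had 3506 ± 138 and 3494 ± 98.8 bases. Over 17142 genes with a length in every library that varied between libraries, 8.29% had DM1 libraries that were all shorter and 4.39% all longer. A small change in the use of short exons would not move this mean.

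**Figure D4:**
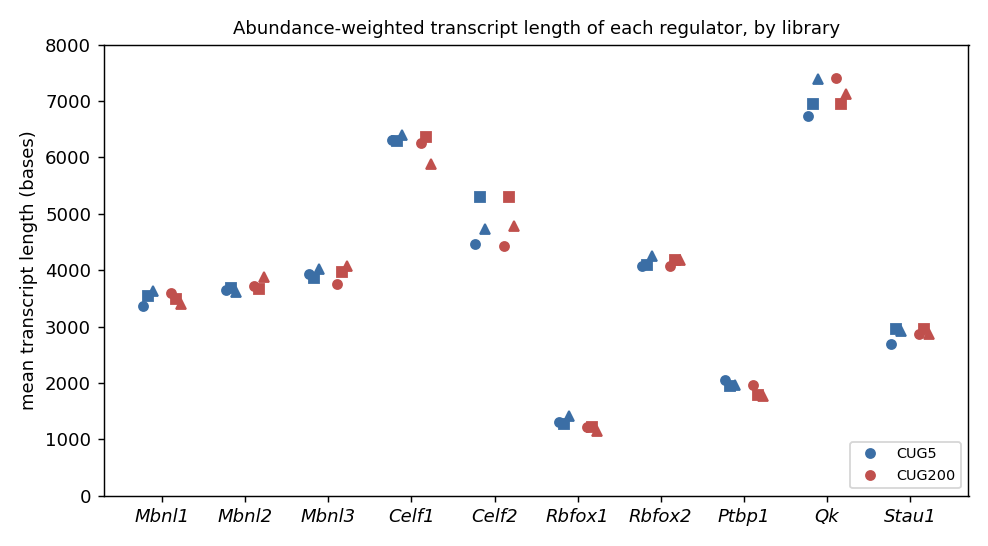
Abundance-weighted mean transcript length of each regulator, in bases, by library. Circles, squares, and triangles are replicates 1, 2, and 3. The groups overlap for 9 regulators and are apart for *Rbfox1*, whose mean changed by -10.1%.

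Fold changes moved with transcript length over all genes, and most of the regulators are long. With the genes split into 4 equal groups by length, the median log2 fold change was 0.22 in the shortest, 0.03 and -0.05 in the middle groups, and -0.12 in the longest, where 17.1% of the genes fell. The 3 MBNL genes, *Celf1*, *Celf2*, *Rbfox2*, and *Qk* were in the longest group. With an offset for transcript length in the same edgeR test, *Qk* (log2 fold change -0.39, adjusted p = 0.0105), *Celf1* (-0.34, adjusted p = 0.0259), *Ptbp1* (-0.31, adjusted p = 0.0269), and *Rbfox1* (-0.98, adjusted p = 0.0264) were still called. *Rbfox2* was then at -0.15 (edgeR adjusted p = 0.225).

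**Figure D5:**
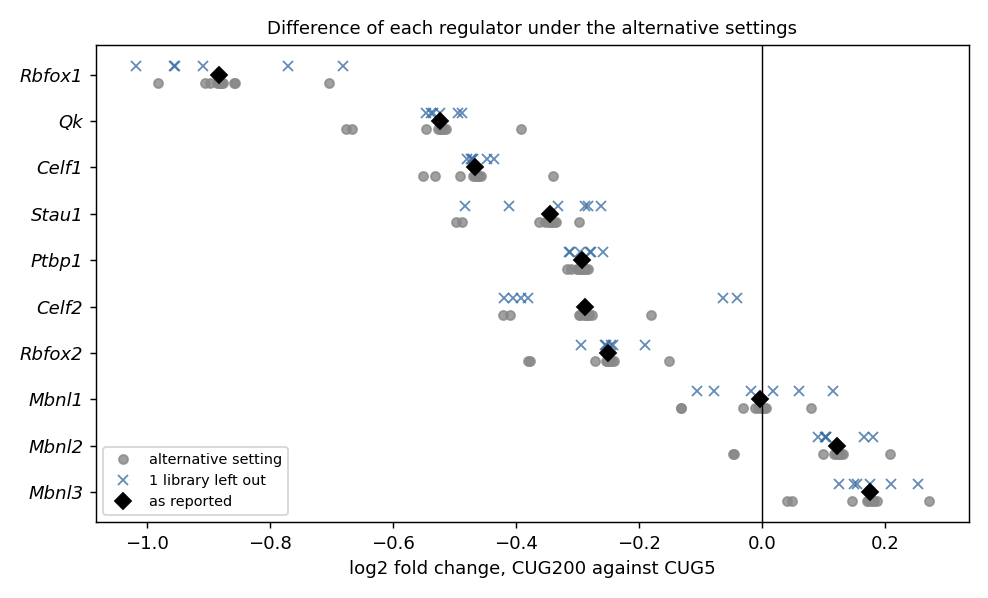
Log2 fold change of each regulator as reported (black), with another processing choice (grey) and with 1 library left out (crosses). *Qk* and *Celf1* stay below 0 throughout, between -0.68 and -0.34, while *Mbnl1* lies on both sides of 0, between -0.13 and 0.12.

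Other genes lie within the span of some regulators, and the methods do not give a strand setting for the counting. *Ptbp1* shares 251 exonic bases with *Plppr3* on the opposite strand, whose counts came to 14.6% of those of *Ptbp1*, and 295 bases with *E130317F20Rik* (2.19%). *Plppr3* had a log2 fold change of -0.25 (edgeR adjusted p = 0.434) and *E130317F20Rik* one of 0.27 (adjusted p = 0.357), so neither passed the test. *Gm17134*, also on the opposite strand, shares 437 exonic bases with *Ptbp1* and had 0 counts in every library. The part of *Ptbp1* counts that came from its antisense neighbours could not be told apart from its own. Within *Mbnl1*, on its strand and without shared exons, lay the gene models of unproven status *Gm37589* and *Gm37488*. *Gm37589* had 41, 44, and 57 counts in CUG5 replicates 1 to 3 and 115, 109, and 73 in CUG200 replicates 1 to 3. Its groups did not overlap, and it rose with a log2 fold change of 1.05 (SE 0.300, edgeR adjusted p = 0.0464), from 0.673 ± 0.168 to 1.39 ± 0.254 CPM. *Gm37488* was at 1.37 (edgeR adjusted p = 0.0879). *1700109K24Rik*, antisense to *Rbfox2* with no shared exonic bases, had counts of its own that came to 3.37% of those of *Rbfox2*, and was at 0.05 (edgeR adjusted p = 0.821). *Mbnl3*, *Celf1*, *Qk*, and *Stau1* overlapped no annotated gene.

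Among 27 paralogs and other tissue splicing regulators, 21 were tested, 3 fell and 0 rose, with a median log2 fold change of -0.03. Over all tested genes 8.73% fell and 7.13% rose. The count that fell was 0 without normal replicate 3 and 1 without normal replicate 2, and without DM1 replicate 2 it was 2, with 2 that rose. Over all genes the count that fell went from 1660 to 485, 774, and 568 in these settings, in this order. The median was -0.13 without DM1 replicate 1 and -0.07 without DM1 replicate 2 or DM1 replicate 3. With DESeq2 4 fell and 1 rose, with a median of -0.09, and with the replicate number as a block 3 fell and 1 rose. With limma-trend on TPM 1 and 2 fell at pseudocounts of 1 and 0.1, with medians of -0.17 and -0.20. *Rbm24*, a muscle splicing activator, fell by 0.69 on the log2 scale (SE 0.136, edgeR adjusted p = 0.0125), from 31.7 ± 2.20 to 19.6 ± 3.39 CPM. *Elavl1*, which encodes the mRNA-stabilizing protein HuR, fell by 0.60 (edgeR adjusted p = 0.0252), and *Rbms3*, an RNA-binding protein gene, fell by 0.46 (adjusted p = 0.0131). The PTBP1 paralogs did not pass: *Ptbp2* was at -0.02 (edgeR adjusted p = 0.962) and *Ptbp3* at 0.12 (adjusted p = 0.538). *Stau2* was at -0.21 (edgeR adjusted p = 0.0924).

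Of 13 proteins linked to the expanded CUG RNA, 2 fell and 0 rose, against 8.73% and 7.13% of all tested genes. The median log2 fold change was 0.01, and its sign turned in several settings. The count that fell was 0 without normal replicate 3 or DM1 replicate 2, and 1 without normal replicate 1 or 2. With the length offset 1 rose and 1 fell, and with limma-trend on TPM 1 fell. *Sfpq*, a paraspeckle protein gene, fell by 0.44 (edgeR adjusted p = 0.0103), from 171 ± 9.48 to 126 ± 4.91 CPM. *Ddx6*, an RNA helicase gene, fell by 0.36 (edgeR adjusted p = 0.0252). *Hnrnph1* was at 0.01 (edgeR adjusted p = 0.961), and the helicase gene *Ddx5* at -0.15 (adjusted p = 0.261).

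Of 12 genes of kinases, cyclins, and calcineurin that act on CELF1 or on its kinases, 4 fell and 0 rose. The list had a median of -0.06, and over all tested genes 8.73% fell and 7.13% rose. The count of the list that fell was 2 without normal replicate 2, normal replicate 3, or DM1 replicate 2. The median was -0.02 without DM1 replicate 1, -0.14 without DM1 replicate 2, and -0.11 without DM1 replicate 3. With limma-trend on TPM it was -0.17 at pseudocounts of 1 and 0.1, and 3 fell in each. *Ccnd3*, the cyclin D3 gene whose protein directs CDK4 to CELF1 in differentiating myoblasts, fell by 1.29 (SE 0.136, edgeR adjusted p = 0.00181), from 203 ± 9.30 to 83.0 ± 16.1 CPM. *Gsk3b*, whose kinase acts on cyclin D3, fell by 1.13 (edgeR adjusted p = 0.0281), from 84.7 ± 24.03 to 38.7 ± 8.24 CPM. *Akt1*, whose kinase phosphorylates CELF1 in myoblasts, fell by 0.47 (edgeR adjusted p = 0.00767), from 190 ± 5.19 to 137 ± 7.09 CPM, and *Akt2* fell by 0.49 (adjusted p = 0.0196).

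Of 8 mRNAs bound by CELF1, 1 rose and 3 fell, against 7.13% and 8.73% of all tested genes. The 8 had a median of -0.21. Without DM1 replicate 2, 0 were called in either direction, and 2 fell without normal replicate 2 and 1 without normal replicate 3. The median was -0.39 without normal replicate 1 or without DM1 replicate 3, and -0.32 without DM1 replicate 1. *Junb* rose, with a log2 fold change of 0.31 (edgeR adjusted p = 0.0246). *Jun* fell by 0.46 (edgeR adjusted p = 0.00914), *Myod1*, the myogenic transcription factor gene, by 0.52 (adjusted p = 0.0129), and *Cdkn1a*, the p21 gene of cell cycle exit, by 0.33 (adjusted p = 0.0257). The call of *Junb* was lost with library totals alone, with limma-trend on TPM, and without any 1 of the normal libraries or DM1 replicate 2.

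Of 34 genes with exons known to be misspliced in DM1, 17 fell and 1 rose, against 8.73% and 7.13% of all tested genes. The 34 had a median of -0.40. The count that fell was 9 without normal replicate 3, 10 without DM1 replicate 2, and 20 without DM1 replicate 3. *Atp2a2*, a sarcoplasmic reticulum calcium pump gene, fell by 1.00 (SE 0.132, edgeR adjusted p = 0.00319), and *Nrap*, an actin-anchoring protein gene of myofibrils, fell by 1.03 (adjusted p = 0.00517). *Add3*, an adducin gene, fell by 0.70 (edgeR adjusted p = 0.00285) and *Pdlim3*, a Z-disc gene, by 0.60 (adjusted p = 0.00517). *Fn1*, the fibronectin gene, rose with a log2 fold change of 0.50 (edgeR adjusted p = 0.0379), a call that was lost with library totals alone, with limma-trend on TPM, and without any 1 of the normal libraries or DM1 replicate 2. Many of the 34 genes are muscle genes. The 17 that passed fell beside myotube markers such as the myosin genes *Myh8* (-2.90, edgeR adjusted p = 7.65e-05) and *Myh7* (-2.13, adjusted p = 9.97e-04), *Ckm* (-0.84, adjusted p = 0.00159), and *Actn2* (-1.22, adjusted p = 0.00211). What part the myotube level had in this count was not tested.

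Of the markers of undifferentiated or reserve cells 2 of 10 were higher (*Cd34* at 0.97 and *Id2* at 0.41) and 3 lower (*Heyl* at -1.61, *Hes1* at -0.67, and *Sdc4* at -0.38). Their summed level was between 265 and 290 TPM in the normal group and between 243 and 289 TPM in the DM1 group. Of 8 proliferation markers 1 was higher (*Pcna* at 0.43) and 2 lower (*Mcm2* at -0.57 and *Mcm5* at -0.43), with a summed level of 535 to 619 TPM in the normal group and 578 to 621 TPM in the DM1 group. *Lpl*, at -0.59, was the single adipocyte marker that fell, and 0 of 6 osteoblast markers were called. No proliferation marker was called in either direction, 0 of 8, without normal replicate 1, normal replicate 3, or DM1 replicate 2, while 3 were higher and 2 lower without DM1 replicate 3, and 0 were higher and 2 lower without normal replicate 2 or DM1 replicate 1. Of the undifferentiated markers 1 was higher with the length offset, with limma-trend on TPM, and without any 1 library other than DM1 replicate 3, and 1 was lower without normal replicate 3. The call in this paragraph is an adjusted p under 0.05 in the same edgeR test. Of all tested genes 7.13% were higher and 8.73% lower by this call.

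Across the 6 libraries, the genes most like *Qk* in log2 CPM were *Fam13c* (Pearson r = 0.9998), *Ddx49* (r = 0.998), and *Ldlrad3* (r = 0.998). Their own log2 fold changes were -0.53, -0.27, and -0.88. A value of r over 0.95 with *Qk* was found for 697 of 11147 genes with a mean of at least 5 CPM, so a high r mostly restates the difference between the groups. The genes most like *Mbnl2*, the regulator with the smallest p-value on the higher side, were *Ell2* (r = 0.996), *Rps15-ps3* (r = 0.984), and *Kif7* (r = 0.980), and 25 genes had an r over 0.95 with it. These correlations describe 6 libraries that share the group difference, and no test was made of them.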

How the data were processed

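Total RNA of 3 normal (CUG5) and 3 DM1 (CUG200) libraries, grouped by sample title, was analysed. The authors trimmed reads with Trim Galore, aligned them to GRCm38 with HISAT2, and used StringTie to derive the values; versions and strand setting are not given in the sources used here. They deposited raw counts per gene, and for each library the coverage, FPKM, and TPM of each gene. Counts were tested with edgeR 4.0.16 (R 4.3.3): filterByExpr at a minimum count of 10, TMM scaling, the robust quasi-likelihood test without covariates, and Benjamini-Hochberg adjustment over 19005 genes. The TMM factors were between 0.940 and 1.05. CPM are TMM-scaled. Shares and lengths were compared by two-sided exact permutation tests. Mean transcript length was 75 times the count divided by the TPM and by a constant of the library. DESeq2 1.42.0 and limma 3.58.1 served as alternatives. The test was also tested on simulated data.

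The members, lists, and tests were chosen with earlier results of these data known, and the analysis of transcript length after seeing these tables. Named were all 10 regulators, and of each list up to 4 genes with the smallest p in each direction among those called. Also named were some, not all, of the genes overlapping a regulator, and the 3 genes most correlated with the regulator of smallest p in each direction. *Ptbp2*, *Ptbp3*, *Stau2*, *Rbfox3*, *Hnrnph1*, *Ddx5*, and the marker genes at 0 were named outside this rule, after their values were seen.

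Alternatives were DESeq2, its size factors, library totals, 2 other filters, the replicate number as a block, limma-trend on the log2 of TPM with a pseudocount of 1 or 0.1, counts divided by 4, counts summed over overlapping genes, a length offset, CPM in place of TPM for shares and ratios, and each library left out.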

Additional observations from a re-analysis of the deposited data

How the results depend on the processing

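*Qk*, *Celf1*, *Celf2*, and *Mbnl3* kept their direction and their side of the threshold in every alternative run. *Mbnl1*, at -0.0033, turned to 0.0012 with DESeq2, to 0.0031 with at least 10 counts in every library, to 0.0024 with overlapping genes summed, to 0.0062 with counts divided by 4, and to 0.080 with the length offset. *Mbnl2* turned to -0.0463 and -0.0458 with limma-trend on the log2 of TPM, at pseudocounts of 0.1 and 1. In these fits the log2 fold change of *Ptbp1* was -0.30 in both (adjusted p = 0.194 and 0.198) and that of *Rbfox1* was -0.86 and -0.70 (adjusted p = 0.0770 and 0.0750), so neither was called, and the count of regulators that fell was 2 in place of 4. These TPM fits called 850 and 816 genes lower and 434 and 427 higher over all genes, and their median log2 fold change was -0.09 and -0.06. *Ptbp1* was also lost with library totals alone (-0.32, adjusted p = 0.0521). *Rbfox2* was called with DESeq2 (-0.25).

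Leaving out 1 library at a time, the count of regulators that fell lay between 2 and 6, the genes called lower between 485 and 2111, and those called higher between 543 and 1678. The log2 fold change ran from -0.10 to 0.12 for *Mbnl1*, from -0.31 to -0.26 for *Ptbp1*, from -1.02 to -0.68 for *Rbfox1*, from -0.29 to -0.19 for *Rbfox2*, from -0.42 to -0.04 for *Celf2*, and from -0.48 to -0.26 for *Stau1*. The difference in share of summed MBNL level ran from -2.49 to 0.197 percentage points for *Mbnl1* and from -0.476 to 2.37 for *Mbnl2*, and that of *Celf1* in summed CELF from -5.51 to -0.190. The cause was not tested. Over all settings, between 9 and 20 of the genes with DM1-linked exons and between 12 and 18 of the myotube markers fell, as did 0 to 4 of the paralogs, 0 to 2 of the CUG RNA-linked proteins, 2 to 4 of the kinase list, 0 to 3 of the CELF1-bound mRNAs, 1 to 3 of the undifferentiated markers, and 0 to 2 of the proliferation markers.

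The methods do not say whether replicate numbers pair the samples. Deviations of libraries with the same number correlated at 0.0675, 0.0222, and 0.0263. Those of libraries with different numbers correlated at between -0.0722 and 0.0451. Shared handling of libraries with the same number was not tested. With the replicate block *Stau1* was called (-0.35, adjusted p = 0.0450), no other call among the regulators changed, and 1497 genes fell and 1326 rose.

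Depth limits *Rbfox1* most, with 137 counts in its lowest library. Counts are aligned bases over 75, so a fragment with more aligned bases than this makes more than 1 count. Counting error is then larger than the count alone implies. The read length is not given in the sources used here, and the divisor of 4 in the alternative run was assumed.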
